A study of Homo sapiens with 8 samples.

Results

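The SR genes encode a family of splicing factors whose messages were followed here in 2 myeloma cell lines treated with a statin. The members were 10 genes chosen by name, SRSF1, SRSF2, SRSF3, SRSF4, SRSF5, SRSF6, SRSF7, SRSF9, SRSF10 and SRSF11, found by the GENCODE symbol of their Ensembl identifier among the 58219 genes listed. H929 and KMS11, established multiple myeloma (MM) cell lines that both carry the translocation t(4;14), were exposed for 24 h to 2 µM fluvastatin or to ethanol, the solvent of the drug. Fluvastatin inhibits HMG-CoA reductase, the rate-limiting enzyme of the mevalonate pathway. Each line and treatment had 2 replicates, which the methods of the study call biological, so there were 8 libraries in 4 groups, and each line stands for itself alone as a model of t(4;14)-positive MM. The libraries held 26702515 to 41910446 expected counts each, RSEM's estimates of how many sequenced fragments came from each gene. All 10 members passed the filter on low counts and belonged to the 13129 protein-coding genes tested, and their own expected counts lay between 1554 (SRSF4) and 28976 (SRSF1).

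The plasma cell markers IRF4 (94.3 to 194 TPM, a level per transcript length), XBP1 (254 to 944 TPM) and SDC1 (38.8 to 122 TPM) were present in all 8 libraries. CD38 was at 21.2 TPM or more in H929 and between 0.01 and 0.04 TPM in KMS11. CD14, MS4A1 and PAX5, which mark monocytes and B cells, stayed at or under 0.02 TPM in every library, the myeloid gene LYZ reached 0.17 TPM, the T cell genes CD3D and CD3E reached 0.15 and 3.54 TPM, with CD3E at 1.49 TPM or more in H929, and the fibroblast gene COL1A1 reached 0.06 TPM, while the epithelial gene EPCAM was at 30.2 TPM or more in KMS11. Replicates differed by more than counting error in every group, most between the fluvastatin libraries of KMS11, where log2 ratios of replicate 2 to replicate 1 had an SD of 0.251, against 0.124 to 0.181 in the other groups. Of the members, 10, 9, 9 and 6 of the 10 had the higher value in replicate 2 of H929 fluvastatin, H929 ethanol, KMS11 fluvastatin and KMS11 ethanol, against 67.1%, 59.2%, 63.9% and 52.6% of the 5597 genes compared.

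SR proteins carry 1 or 2 RNA recognition motifs, which bind exonic enhancer sequences, and a tail rich in arginine and serine that contacts the spliceosome once kinases of the SRPK and CLK families have phosphorylated it. They mark exons for inclusion, and several also take part in export of mRNA from the nucleus, translation and the choice of polyadenylation site. The family limits its own amount: several SR proteins promote the inclusion of highly conserved exons with a stop codon in frame in their own messages. The transcripts that result are degraded by nonsense-mediated decay (NMD).

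Every member has at least 1 transcript annotated as subject to NMD among those listed in the files. In 6 members (SRSF3, SRSF4, SRSF6, SRSF7, SRSF9 and SRSF11) an annotated transcript of that kind holds a cassette exon that brings in its stop codon. For SRSF3, SRSF4, SRSF6 and SRSF7 the stretch of such an exon from its first base to its stop codon is shown, because a gene's count below sums the productive transcripts and the transcripts that carry these exons. The sequences are from GRCh38 on the strand of the gene, 5′ to 3′, with the stop codon in capitals.
SRSF3-203 (plus strand, exon at chr6:36599821-36600276, printed to 36599854): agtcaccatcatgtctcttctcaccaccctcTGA
SRSF4-205 (minus strand, exon at chr1:29165890-29166064, printed from 29166064 down to 29166009): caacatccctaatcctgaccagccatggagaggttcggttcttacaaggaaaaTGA
SRSF6-202 (plus strand, exon at chr20:43459153-43459420, printed to 43459304): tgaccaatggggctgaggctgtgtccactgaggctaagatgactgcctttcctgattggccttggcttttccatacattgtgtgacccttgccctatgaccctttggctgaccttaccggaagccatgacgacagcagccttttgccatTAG
SRSF7-204 (minus strand, exon at chr2:38748898-38749346, printed from 38749346 down to 38749319): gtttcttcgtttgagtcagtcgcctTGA
The coding part of the exon ends after 34 bases in SRSF3-203, 56 in SRSF4-205, 152 in SRSF6-202 and 28 in SRSF7-204, of exons of 456, 175, 268 and 449 bases.

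The members differed about 10-fold in level per transcript length in ethanol. SRSF3, the smallest SR protein and an adaptor for export of mRNA, was the highest of the 10 in all 4 groups, at 204 and 211 TPM in H929 and 351 and 376 TPM in KMS11 in ethanol. In H929 in ethanol it was followed by SRSF1 (130 ± 10.3 TPM, SD, n = 2), SRSF2 (118 ± 12.6 TPM) and SRSF7 (106 ± 10.2 TPM), and the library values overlapped between SRSF1 and SRSF2 and between SRSF2 and SRSF7. Below these lay SRSF9 (62.4 TPM), SRSF10 (59.6 TPM), SRSF5 (48.2 TPM), SRSF6 (43.8 TPM), SRSF11 (37.3 TPM) and SRSF4 (20.7 TPM), of which SRSF5 and SRSF6 overlapped. In KMS11 in ethanol the order began with SRSF3 (364 ± 17.0 TPM), SRSF2 (231 TPM) and SRSF1 (224 TPM), of which SRSF2 and SRSF1 overlapped, and ended with SRSF11 (42.4 TPM) and SRSF4 (31.5 TPM). SRSF3 held 24.9% ± 0.925 of the summed TPM of the 10 genes in H929 in ethanol and 23.3% ± 0.777 in fluvastatin, and in KMS11 it held 25.6% ± 1.02 and 25.9% ± 1.49 (SD, n = 2 each), so its share moved little while the sum fell. That sum was 797 and 870.1 TPM in H929 in ethanol against 462 and 503 TPM in fluvastatin, and 1409.9 and 1424 TPM in KMS11 in ethanol against 955 and 1200.1 TPM in fluvastatin. In each line both fluvastatin libraries lay below both ethanol libraries.

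In H929 the SR genes fell together. Of the 10, 9 passed the threshold as lower in fluvastatin and none as higher, against 19.3% of all genes tested that passed as lower. The median log2 fold change of the 10 was -0.65, against 0.02 over all genes tested, and the change ranged from -1.0 (SRSF2) to -0.31 (SRSF11). All values of this comparison are TMM-scaled counts (CPM), a scale on which 1 gene can be followed between libraries, and edgeR's quasi-likelihood test gave the p-values, adjusted after Benjamini and Hochberg over all genes tested. As counts are relative to the rest of the RNA of a bulk sample, less of a message per cell and fewer cells that make it cannot be told apart.

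Among the members with 2 RNA recognition motifs, SRSF1 (ENSG00000136450.12, chromosome 17, 58000919 to 58007346, minus strand), the founding member of the family and a proto-oncogene, was the most abundant. It was at 573 and 665 CPM in the H929 ethanol libraries and at 325 and 351 CPM in the fluvastatin libraries. It fell by 45.5% in H929 (log2 fold change -0.87, standard error 0.11, adjusted p = 0.00024). SRSF9 (ENSG00000111786.8, chromosome 12, 120461672 to 120495946, minus strand), a close relative of SRSF1 with a short tail, had 134 and 141 CPM in ethanol and 82.7 and 85.3 CPM in fluvastatin. Its replicates were close to each other and far from those of the other treatment (log2 fold change -0.71, standard error 0.08, adjusted p = 0.00017). SRSF4 (ENSG00000116350.16, chromosome 1, 29147743 to 29181900, minus strand), one of the larger SR proteins, went from 104 and 102 CPM to 68.3 and 69.2 CPM, a change of -0.59 (standard error 0.08, adjusted p = 0.00043). SRSF6 (ENSG00000124193.14, chromosome 20, 43457893 to 43466046, plus strand) had 232 and 271 CPM in ethanol and 159 and 188 CPM in fluvastatin, a smaller fall on a wider spread (-0.53, standard error 0.17, adjusted p = 0.029). SRSF5 (ENSG00000100650.15, chromosome 14, 69726900 to 69772005, plus strand) was the member that did not pass, at 91.0 and 114 CPM in ethanol and 69.3 and 84.8 CPM in fluvastatin (-0.41, standard error 0.17, adjusted p = 0.079). Its groups did not overlap either, but its replicates differed by about as much as its treatments, and with per-library trends in GC content and length removed its adjusted p was 0.0067.

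The members with 1 RNA recognition motif all fell in H929. SRSF2 (ENSG00000161547.16, chromosome 17, 76734115 to 76737333, minus strand), which is recurrently mutated in myelodysplastic syndromes, had 364 and 437 CPM in ethanol and 186 and 215 CPM in fluvastatin. This was the largest fall of the 10, by 50.0% (log2 fold change -1.0, standard error 0.14, adjusted p = 0.00038). SRSF3 (ENSG00000112081.16, chromosome 6, 36594353 to 36605600, plus strand), whose cassette exon is printed above, went from 540 and 616 CPM to 330.3 and 355 CPM, so that it fell by 40.8% (-0.76, standard error 0.11, adjusted p = 0.00046). SRSF7 (ENSG00000115875.18, chromosome 2, 38743599 to 38751494, minus strand), which shares the export function of SRSF3 and has a zinc knuckle besides, had 257 and 294 CPM in ethanol and 158 and 172 CPM in fluvastatin (-0.74, standard error 0.11, adjusted p = 0.00046). These 3 and SRSF1 were the members with the highest levels per length and had the largest falls of the 10.

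SRSF10 (ENSG00000188529.14, chromosome 1, 23964347 to 23980927, minus strand), which acts as a splicing repressor once dephosphorylated in heat shock or mitosis, went from 240 and 254 CPM to 161 and 175 CPM in H929 (log2 fold change -0.56, standard error 0.11, adjusted p = 0.0025). SRSF11 (ENSG00000116754.13, chromosome 1, 70205682 to 70253052, plus strand), one of the less typical members, had 167 and 181 CPM in ethanol and 133 and 148 CPM in fluvastatin, the smallest fall (-0.31, standard error 0.10, adjusted p = 0.029). For all 10 members both H929 fluvastatin libraries were below both ethanol libraries, a pattern that 33.5% of all genes tested had. The median of the 5 members with 1 RNA recognition motif was -0.74 and that of the 5 with 2 was -0.59. The changes of SRSF6 and SRSF11 were weaker without ethanol replicate 2 (-0.42 and -0.25) and without fluvastatin replicate 1 (-0.42 and -0.24). Neither gene passed the threshold in these fits.

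**Figure D1:**
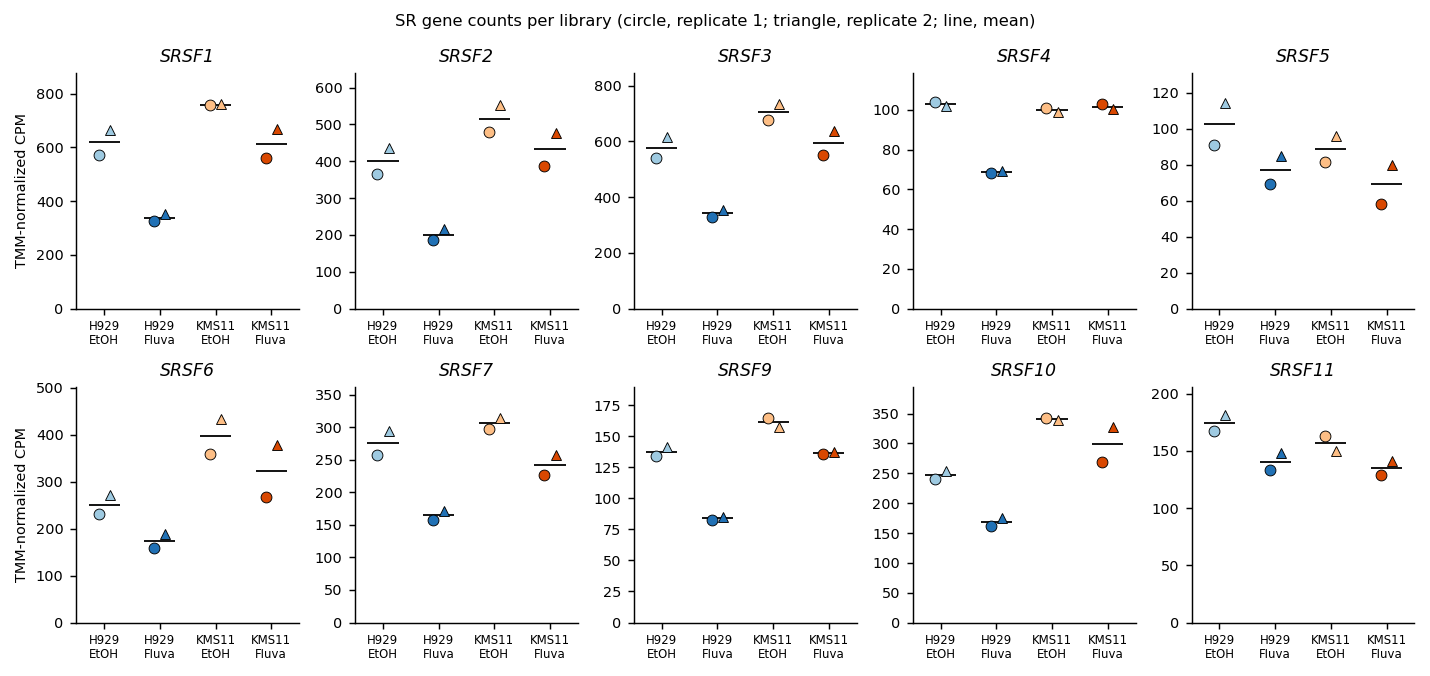
TMM-scaled counts (CPM) (vertical axes, from 0) of the 10 SR genes in each of the 8 libraries, with ethanol (EtOH) and fluvastatin (Fluva) groups of H929 in blue and of KMS11 in orange; circles and triangles are replicates 1 and 2 and lines are group means. In H929 both fluvastatin libraries lie below both ethanol libraries for all 10 genes, and in KMS11 this holds for 8, with SRSF4 and SRSF6 overlapping.

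In KMS11 none of the 10 passed the threshold, and the fitted changes ran from -0.36 (SRSF5) to 0.03 (SRSF4). By edgeR's quasi-likelihood test, 0.533% of all genes tested passed as lower in KMS11, so few genes were called there at all. At an unadjusted p under 0.05, 4 members (SRSF1, SRSF3, SRSF7 and SRSF9) were lower, against 8.23% of all genes, and DESeq2 called 1 (SRSF7) after adjustment, against 2.05% of all genes. The median log2 fold change of the 10 was -0.25, against 0.00 over all genes tested, and 9 of 10 were negative, against 48.1% of all genes.

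SRSF1 had 756 and 760 CPM in KMS11 in ethanol and 561 and 667 CPM in fluvastatin (log2 fold change -0.30, standard error 0.11, adjusted p = 0.16). SRSF2 had 479 and 552 CPM against 388 and 477 CPM (-0.25, standard error 0.14, adjusted p = 0.30), and SRSF3 had 676 and 734 CPM against 549.5 and 637 CPM (-0.25, standard error 0.11, adjusted p = 0.22). The groups of SRSF2 were the closest of these 3, as its higher fluvastatin library came within a few CPM of its lower ethanol library. SRSF7 had the lowest adjusted p, with 297 and 315 CPM in ethanol and 227 and 258 CPM in fluvastatin (-0.33, standard error 0.10, adjusted p = 0.12). SRSF9 had 165 and 157 CPM against 136 and 137 CPM (-0.24, standard error 0.08, adjusted p = 0.14). Both groups were narrow for SRSF9 and well apart. SRSF5 had the most negative change, from 81.5 and 95.9 CPM to 58.4 and 79.6 CPM (-0.36, standard error 0.17, adjusted p = 0.25), which was close to its change in H929. SRSF10 had 343 and 339 CPM against 269 and 328 CPM (-0.19, standard error 0.11, adjusted p = 0.32), and SRSF11 had 163 and 149.9 CPM against 129 and 141 CPM (-0.21, standard error 0.10, adjusted p = 0.24).

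SRSF6 and SRSF4 were the members whose groups overlapped in KMS11. SRSF6 had 359 and 434 CPM in ethanol and 267 and 379 CPM in fluvastatin (log2 fold change -0.30, standard error 0.17, adjusted p = 0.33), with the widest spread between fluvastatin replicates of the 10. SRSF4 was at 101 and 99.0 CPM in ethanol and at 103 and 100.4 CPM in fluvastatin, with a change of 0.03 (standard error 0.08, adjusted p = 0.86) that turned to -0.01 with DESeq2 and to -0.26 on the log2(TPM + 1) scale. The other 8 members did not overlap, against 26.5% of all genes that had both fluvastatin libraries below both ethanol libraries in KMS11. The count of 0 depended on the fit. Without fluvastatin replicate 2, 6 members passed (SRSF1, SRSF3, SRSF5, SRSF6, SRSF7 and SRSF10), against 4.81% of all genes called lower. With all 8 libraries that share was 0.533%. The fit without replicate 2 has 1 KMS11 fluvastatin library and takes the spread from the other groups. Its count therefore cannot show what the 0 rested on.

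The difference between the responses was tested directly. For 5 members the log2 fold change was higher in KMS11 than in H929 past the threshold, against 11.7% of all genes tested. The difference, KMS11 minus H929, was 0.75 for SRSF2 (standard error 0.19, adjusted p = 0.022), 0.62 for SRSF4 (standard error 0.12, adjusted p = 0.0057), 0.57 for SRSF1 (standard error 0.16, adjusted p = 0.027), 0.51 for SRSF3 (standard error 0.15, adjusted p = 0.039) and 0.47 for SRSF9 (standard error 0.12, adjusted p = 0.021). SRSF4, which fell by 33.4% in H929 and had a change of 0.03 in KMS11, had the lowest adjusted p and the smallest standard error of these beside SRSF9. For SRSF7 (0.41, adjusted p = 0.074), SRSF10 (0.36, adjusted p = 0.11) and SRSF6 (0.24, adjusted p = 0.50) the difference had the same sign and did not pass, and for SRSF11 (0.10, adjusted p = 0.65) and SRSF5 (0.05, adjusted p = 0.91) it was smaller than its standard error. Without single libraries the median difference of the 10 lay between 0.34 and 0.52, against 0.44 with all 8. It was lowest without KMS11 fluvastatin replicate 2, where the difference was negative for SRSF5 (-0.20) and SRSF6 (-0.05). Which members were called depended on the library left out.

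**Figure D2:**
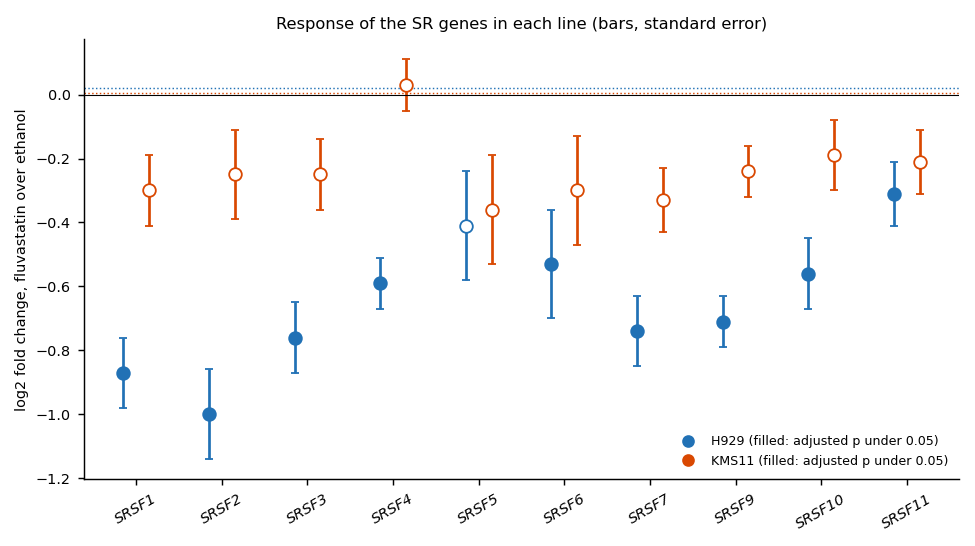
Log2 fold change of fluvastatin over ethanol (vertical axis) of the 10 SR genes in H929 (blue) and KMS11 (orange), with standard errors as bars and filled points for an adjusted p under 0.05; dotted lines are the medians of all genes tested (0.02 and 0.00). The H929 points run from -1.0 to -0.31 and the KMS11 points from -0.36 to 0.03, and the 2 lines lie close together for SRSF5 and SRSF11.

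Across both lines, with the line as a term, 5 members were lower in fluvastatin, against 3.93% of all genes tested. These were SRSF2 (log2 fold change -0.63, standard error 0.17, adjusted p = 0.046), SRSF1 (-0.59, standard error 0.13, adjusted p = 0.030), SRSF7 (-0.54, standard error 0.11, adjusted p = 0.023), SRSF3 (-0.50, standard error 0.12, adjusted p = 0.036) and SRSF9 (-0.47, standard error 0.11, adjusted p = 0.030). SRSF10 (-0.37, adjusted p = 0.055), SRSF11 (-0.26, adjusted p = 0.069), SRSF6 (-0.41, adjusted p = 0.079), SRSF5 (-0.39, adjusted p = 0.088) and SRSF4 (-0.28, adjusted p = 0.17) did not pass. The 8 members other than SRSF4 and SRSF6 had their fluvastatin libraries below their ethanol libraries in both lines, as did 12.4% of all genes. This fit carries the difference between the lines in its spread. Without single libraries the median log2 fold change of the 10 lay between -0.57 (without KMS11 fluvastatin replicate 2) and -0.38, against -0.44 with all 8. Whether any member was called at all depended on the library left out, as did the number of all genes called.

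Without drug the lines differed in the SR genes as well. Of the 10 members, 6 were higher in KMS11 than in H929 in ethanol and none was lower, against 35.6% of all genes tested called higher and 36.4% called lower. The largest difference was that of SRSF6, at 359 and 434 CPM in KMS11 against 232 and 271 CPM in H929 (log2 difference 0.66, standard error 0.17, adjusted p = 0.0056). SRSF10 followed (0.47, standard error 0.11, adjusted p = 0.0030), and SRSF2 (0.36, adjusted p = 0.034), SRSF1 (0.29, adjusted p = 0.036), SRSF3 (0.29, adjusted p = 0.035) and SRSF9 (0.23, adjusted p = 0.029) differed less. SRSF7 (0.15, adjusted p = 0.21), SRSF4 (-0.05, adjusted p = 0.61), SRSF5 (-0.21, adjusted p = 0.28) and SRSF11 (-0.16, adjusted p = 0.18) did not pass. Both KMS11 ethanol libraries were above both H929 ethanol libraries for 7 members, against 43.8% of all genes, and below them for SRSF4 and SRSF11, against 44.4%. The scale mattered here: the median difference of all genes was 0.31 on the log2 TPM scale and -0.02 on the CPM scale, and that of the members was 0.76 and 0.26, so that SRSF4, SRSF5 and SRSF11, negative by CPM, were positive on the log2(TPM + 1) scale (0.58, 0.02 and 0.18). Without single ethanol libraries the median CPM difference of the members lay between 0.19 and 0.33. With any single ethanol library left out fewer members were called, and which ones depended on the library.

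The files also give, for each gene and library, the mean length of its transcripts weighted by their estimated abundance, a value in bases that shifts when fragments are assigned to another mix of transcripts and that does not depend on the gene's total. In ethanol, 2 members had longer mean transcripts in KMS11 than in H929 by limma's test, against 3.1% of the 12146 genes whose length varied, and neither passed when any 1 of the 4 ethanol libraries was left out. SRSF6 had 3418 and 3513 bases in KMS11 and 2832 and 2880 bases in H929 (log2 difference 0.279, standard error 0.033, adjusted p = 0.020). SRSF5 had 1406 and 1387 bases in KMS11 and 1181 and 1162 bases in H929 (log2 difference 0.253, standard error 0.031, adjusted p = 0.022). SRSF11 had 2688 and 2630 bases against 2322 and 2395 bases (log2 difference 0.173, standard error 0.033, adjusted p = 0.056). The files list only 2 transcripts for SRSF6, the productive one, of 4353 bases in GENCODE release 44, and SRSF6-202 of 1680 bases with the cassette exon printed above. For this gene a longer mean therefore stands for a larger estimated share of the productive transcript. The 2 transcripts differ at the 3′ end too, and the estimate rests on how RSEM divided the fragments.

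No member changed its mean transcript length with fluvastatin past the threshold in either line or across both, and few genes did: limma called 0.181% of the 12146 genes in H929, 0.0576% in KMS11 and 0.0% across both lines. At an unadjusted p under 0.05, 5 members in H929, 2 in KMS11 and 1 across both lines were past it, against 9.53%, 6.64% and 5.26% of all genes. In H929 the count was 2 without either H929 ethanol library and 3 without either H929 fluvastatin library. The largest shifts in H929 were those of SRSF5, from 1181 and 1162 bases to 1256 and 1307 bases (log2 difference 0.129, adjusted p = 0.34), SRSF3, from 1425 and 1531 bases to 1565 and 1639 bases (log2 difference 0.117, standard error 0.064, adjusted p = 0.70), and SRSF7, from 1396 and 1378 bases to 1490 and 1517 bases (log2 difference 0.117, standard error 0.023, adjusted p = 0.27). In H929 the log2 difference was positive for 8 of the 10 members, with a median of 0.082 against 0.007 over all genes. SRSF2 went the other way, from 1745 and 1772 bases to 1616 and 1680 bases (log2 difference -0.094, adjusted p = 0.44). In KMS11 SRSF7 had between 1332 and 1371 bases in all 4 libraries, and SRSF5 had 1406 and 1387 bases in ethanol against 1286 and 1335 bases in fluvastatin (log2 difference -0.092, adjusted p = 0.70). SRSF4 was the member whose fluvastatin libraries lay above its ethanol libraries in both lines, at 2484 and 2530 bases against 2704 and 2639 bases in H929 and at 2253 and 2366 bases against 2541 and 2566 bases in KMS11 (log2 difference across both 0.118, standard error 0.024, adjusted p = 0.90). SRSF9 kept to 1187 to 1219 bases in all 8 libraries.

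**Figure D3:**
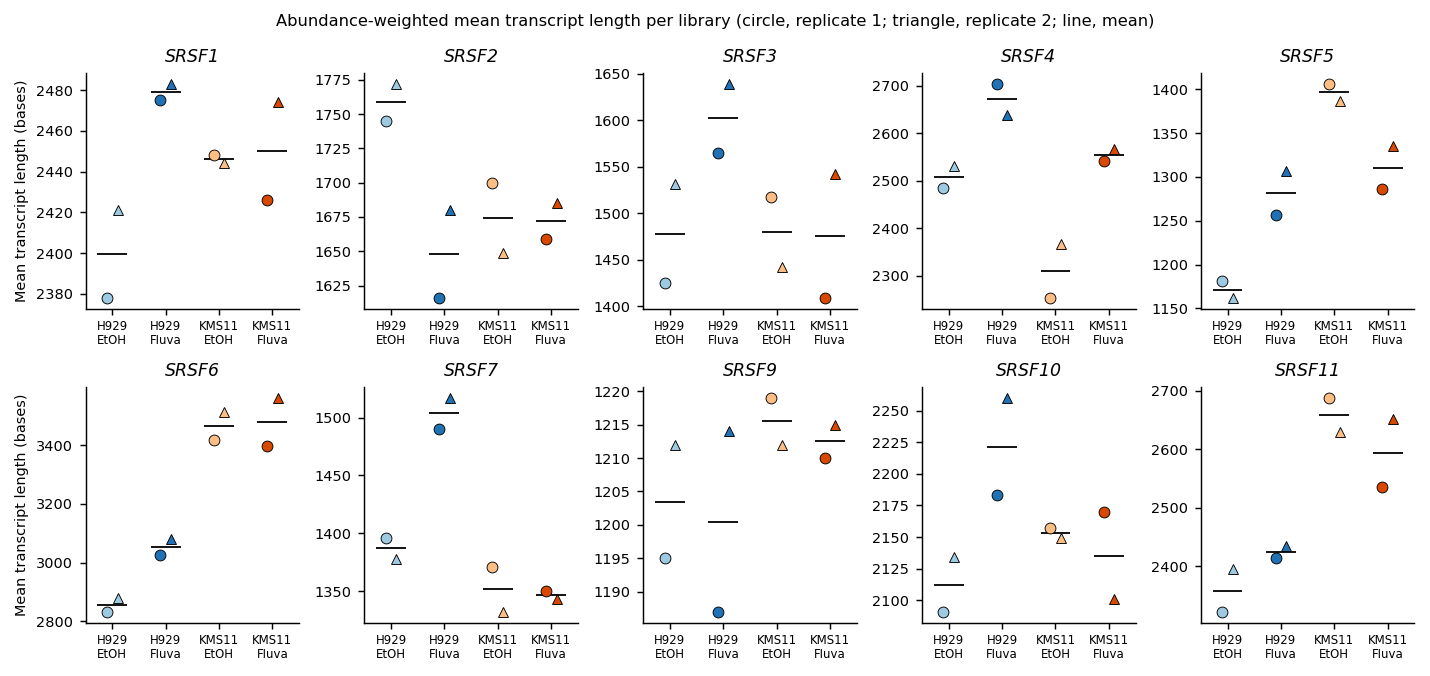
Abundance-weighted mean transcript length in bases (vertical axes, which do not start at 0) of the 10 SR genes in each library, with H929 in blue, KMS11 in orange, circles and triangles for replicates 1 and 2 and lines for group means. In ethanol both KMS11 libraries of SRSF5 and SRSF6 lie above both H929 libraries, and in H929 both fluvastatin libraries of SRSF7 (1490 and 1517 bases) lie above both ethanol libraries (1396 and 1378 bases).

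The genes that act on SR proteins did not move as one. The list of SR kinases and the importer TNPO3, which carries phosphorylated SR proteins into the nucleus, held 10 genes. Of these, 3 fell and 4 rose in H929, against 19.3% and 22.7% of all genes tested. In KMS11 none passed by edgeR's test, and 1 was lower at an unadjusted p under 0.05, against 8.23% of all genes. None passed there with DESeq2, which called 2.05% of all genes lower. Across both lines 1 fell and 1 rose, against 3.93% and 6.5% of all genes. The list's median log2 fold change was 0.16 in H929 and -0.09 in KMS11. SRPK1, the main cytoplasmic SR kinase, fell in H929 from 225 and 254 CPM to 126 and 142 CPM (log2 fold change -0.84, adjusted p = 0.00018) and fell across both lines (-0.57, adjusted p = 0.028). DYRK1A (0.52, adjusted p = 0.0015) and CLK1 (0.46, adjusted p = 0.036), kinases of the nucleus, rose in H929 and had 0.11 (adjusted p = 0.51) and -0.12 (adjusted p = 0.68) in KMS11. CLK4 also rose in H929 (0.38, adjusted p = 0.047), while CLK2, of the same family, fell (-0.32, adjusted p = 0.030), as did TNPO3 (-0.41, adjusted p = 0.0037). The difference between the lines passed for DYRK1A (-0.42, adjusted p = 0.044) and for SRPK1 (0.54, adjusted p = 0.024) and not for CLK1 (-0.58, adjusted p = 0.081). SRPK3, a muscle kinase, was also called higher in H929 but reached at most 1.33 CPM in any library.

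Of 23 tested genes of other proteins with stretches rich in arginine and serine, 11 fell in H929, against 19.3% of all genes, none rose, and the median log2 fold change was -0.32. In KMS11 1 of the 23 passed as lower, against 0.533% of all genes, TRA2A, a splicing activator related to the SR family (-0.47, adjusted p = 0.029). In that line 6 were lower at an unadjusted p under 0.05 and 3 with DESeq2, against 8.23% and 2.05% of all genes. The median there was -0.17. Across both lines 3 fell, against 3.93% of all genes. PNN, a component of complexes bound to exon junctions, had the largest fall of this list in H929 (-1.08, adjusted p = 3.6e-05, against -0.39 with adjusted p = 0.065 in KMS11). U2AF2, which binds the polypyrimidine tract at the 3′ splice site (-0.97, adjusted p = 0.00032), SNRNP70, a protein of the U1 particle at the 5′ splice site (-0.91, adjusted p = 0.0014), and SRRM1, a coactivator of SR proteins (-0.72, adjusted p = 0.00019), fell in H929. TRA2B, the paralog of TRA2A, and LUC7L3, a protein associated with the U1 particle, fell across both lines (-0.41, adjusted p = 0.038, and -0.32, adjusted p = 0.044). U2AF2 had 0.21 in KMS11 (adjusted p = 0.36), and its difference between the lines was 1.18 (adjusted p = 0.0022), larger than that of any SR gene.

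The hnRNP proteins, many of which oppose SR proteins at the exons they both bind, had 14 of 18 genes that fell in H929, against 19.3% of all genes, none that rose and a median of -0.46. In KMS11 none of the 18 passed by edgeR's test and the median was -0.24. In that line 7 were lower and 1 higher at an unadjusted p under 0.05, against 8.23% of all genes that were lower. With DESeq2 3 were lower there, against 2.05% of all genes. Across both lines 7 fell, against 3.93% of all genes. In H929 the largest falls were those of PTBP1 (-0.90, adjusted p = 0.00012), a repressor that binds polypyrimidine stretches, HNRNPH1 (-0.72, adjusted p = 0.00052), HNRNPC (-0.65, adjusted p = 0.0016) and HNRNPA2B1 (-0.64, adjusted p = 0.00084). Across both lines HNRNPA3 (-0.40, adjusted p = 0.021), HNRNPM (-0.38, adjusted p = 0.025) and HNRNPA1 (-0.36, adjusted p = 0.024), a repressor known to compete with SRSF1, were among the genes that fell. PTBP1 had 0.23 in KMS11 (adjusted p = 0.22) and differed between the lines by 1.13 (adjusted p = 0.00091).

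Of the 15 genes of NMD and the exon junction complex, which degrade the SR transcripts that hold the printed exons, 8 fell in H929, against 19.3% of all genes, none rose, and the median was -0.46. None of the 15 passed in KMS11 by edgeR's test, where the median was -0.03. In that line 3 were lower at an unadjusted p under 0.05 and 1 with DESeq2, against 8.23% and 2.05% of all genes. Across both lines 3 fell, against 3.93% of all genes. UPF3B (-0.97, adjusted p = 0.00041), UPF2 (-0.77, adjusted p = 0.00031), the helicase UPF1 (-0.64, adjusted p = 0.015) and the exon junction helicase EIF4A3 (-0.62, adjusted p = 0.00062) had the largest falls in H929. UPF1 had 0.27 in KMS11 (adjusted p = 0.38), a difference of 0.92 between the lines (adjusted p = 0.026). In H929 the SR genes had the lowest median of these lists, and in KMS11 their median of -0.25 lay next to that of the hnRNP genes.

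**Figure D4:**
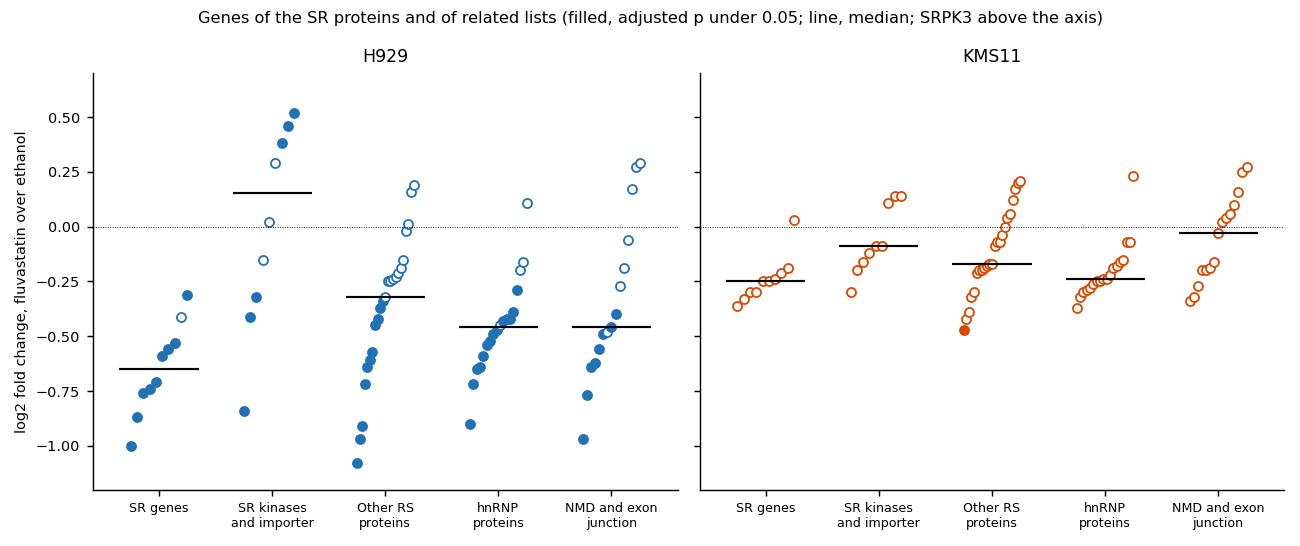
Log2 fold change of fluvastatin over ethanol (vertical axis) of each gene of the SR family and of 4 related lists in H929 (left) and KMS11 (right), with filled points for an adjusted p under 0.05 and lines for list medians; SRPK3, at 2.83 in H929 and 2.23 in KMS11 on very few counts, lies above the axis. In H929 the medians are -0.65, 0.16, -0.32, -0.46 and -0.46 from left to right, and in KMS11 they lie between -0.25 and -0.03.

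The members followed each other across libraries within a line. Centred within each line, the log2 CPM of a member correlated with the mean of the other 9 at r = 0.83 (SRSF4) to 1.0 (SRSF3) over 8 libraries, and the 45 pairs of members had a median r of 0.91, with a lowest value of 0.5. SRSF5 (r = 0.85) and SRSF4 were the members least like the rest. Outside the family, the genes whose pattern was most like the mean of the members, of 5528 candidates over the same 8 libraries, were PAK1IP1 (r = 0.9986), RPL7L1 (0.9982), VDAC2 (0.9981), C1QBP (0.9979) and DHX15 (0.9979). Their log2 fold changes in H929 were -1.02, -0.69, -0.40, -0.91 and -0.83, and in KMS11 they were -0.40, -0.29, -0.15, -0.37 and -0.34. All these correlations are descriptions, as the libraries share the split by treatment and the last 5 genes were picked as the highest of many values.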

How the data were processed

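RNA of 8 cultures was measured by stranded, paired-end total RNA-seq after depletion of ribosomal RNA. The authors aligned reads with STAR 2.5.2b and estimated genes with RSEM 1.3.0, versions as in the submitters' processing notes, on hg38 (GRCh38) with GENCODE release 26. The expected counts deposited by the authors are not normalized, and the deposited TPM values are scaled by RSEM per effective length. FPKM was not used. The strand setting of the counting was not given in the sources used here. GENCODE release 44, in which 57392 of the 58219 identifiers were found, gave symbols, positions and biotypes.

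Expected counts were rounded, filtered with filterByExpr (minimum count 10, minimum total 15, protein-coding genes, 4 groups), scaled by TMM and tested with edgeR 4.0.16 in R 4.3.3 (quasi-likelihood F test, Benjamini-Hochberg adjustment over 13129 genes, threshold 0.05). The fit across both lines had terms for line and treatment, and the other contrasts used the 4 group means. A standard error is the size of a log2 fold change divided by the square root of F. CPM ± SD is over 2 replicates, so the precision rests on the spread shared between genes and groups. Log2 mean transcript length was tested with limma 3.58.1. Alternatives were DESeq2 1.42.0, other scalings and filters, limma on log2(TPM + 1) and log2(TPM + 0.1), trends with GC content and length removed, a replicate block, no line term, a Bonferroni adjustment and leaving out each library. After these fits, the tests were also run on simulated counts and lengths whose means and spread were taken from these data.

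The members and lists were chosen with earlier results of these data known. Named besides the members were, from each of 4 lists, up to 4 genes past the threshold in H929 and 3 across both lines with the largest changes, and the 5 genes most correlated with the members at a mean log2 CPM of 5 or more. TRA2A, CLK2, CLK4 and TNPO3 were named after their values were seen. The labels do not say whether libraries of the same number share a culture. Their deviations from the group means correlated at 0.63 in H929 and 0.01 in KMS11 over 11042 genes, so a pairing was not established for both lines and the replicate block was kept as an alternative.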

Additional observations from a re-analysis of the deposited data

Results flagged for a closer look

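For 5 of the 10 SR genes the lines responded differently to fluvastatin, by the interaction contrast of edgeR's quasi-likelihood test. Of all genes tested, 11.7% were called with a higher change in KMS11. With limma on log2(TPM + 1) 0 of the 10 passed, against 5.97% of all genes, and which members passed varied without single libraries. The log2 difference, KMS11 minus H929, was 0.57 for SRSF1, 0.75 for SRSF2, 0.51 for SRSF3, 0.62 for SRSF4 and 0.47 for SRSF9. In the first 3 and SRSF9 both lines had a negative change and H929 the larger one, and SRSF4 had a change of -0.59 in H929 and 0.03 in KMS11. The spread between the fluvastatin replicates of KMS11 was the widest of the 4 groups, and its part in these differences was not tested.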

How the results depend on the processing

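Every member had at least 1554 counts in every library, and replicates differed by more than counting error in every group. In H929, where 9 members passed, 0 passed a Bonferroni adjustment, which called 1.45% of all genes lower. Without single libraries the median log2 fold change of the 10 lay between -0.69 and -0.62. In KMS11, where 0 passed, DESeq2 called 1, against 2.05% of all genes called lower. Removing GC and length trends called 3 (SRSF1, SRSF7 and SRSF9), against 6.45%. Without single libraries the members' median in KMS11 lay between -0.43 and -0.16. Across both lines, where 5 passed, 0 passed with a Bonferroni adjustment or with no line term, and each called 0.0% of all genes lower. With DESeq2 8 passed, against 9.3% of all genes, and with GC and length trends removed 8 did, against 12.9%. With limma on log2(TPM + 1) and on log2(TPM + 0.1) 8 passed, against 6.15% and 6.91%. The members' median without single libraries lay between -0.57 and -0.38. For the difference between the lines 5 passed, against 11.7% of all genes called higher. There 0 passed with a Bonferroni adjustment, against 0.335%. With limma on log2(TPM + 1) and on log2(TPM + 0.1) 0 passed, against 5.97% and 5.8%. With GC and length trends removed 8 passed, against 18.9%, so calls rose among all genes too. The count was 1 to 7 without single libraries, and the share of all genes called varied as well. For the difference in ethanol, where 6 passed, 0 passed with a Bonferroni adjustment, against 10.8% of all genes called higher. The members' median there lay between 0.19 and 0.33 without single libraries. With the replicate block, 10 members passed in H929 and 4 in KMS11 (SRSF1, SRSF5, SRSF6 and SRSF7). It called 6 in the difference and 0 across both lines. Without it these counts were 9, 0, 5 and 5. The block called 23.2% of all genes lower in H929, 3.63% lower in KMS11, 17.2% higher in the difference and 0.114% lower across both. The shares without it were 19.3%, 0.533%, 11.7% and 3.93%. A pairing was not established in KMS11.

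These values changed sign. In KMS11 the change of SRSF4 was -0.01 with DESeq2 and with median-of-ratios scaling, -0.26 and -0.27 on the log2(TPM + 1) and log2(TPM + 0.1) scales, and -0.01 to 0.03 without single libraries. On those scales the differences in ethanol were 0.58 and 0.60 for SRSF4, 0.02 and 0.02 for SRSF5 and 0.18 and 0.18 for SRSF11. Without single libraries the difference between the lines ranged from -0.20 to 0.28 for SRSF5 and from -0.05 to 0.49 for SRSF6, both lowest without KMS11 fluvastatin replicate 2. With GC and length trends removed, the genes called across both lines numbered 4 of the SR kinases (2 lower, 2 higher), 10 of the other proteins rich in arginine and serine, 12 of the hnRNP proteins and 5 of the NMD list (these all lower), against 24.0% of all genes called, made up of 12.9% lower and 11.1% higher. By CPM in place of TPM the share of SRSF3 was 20.0%, 19.5%, 20.0% and 20.2% in H929 ethanol, H929 fluvastatin, KMS11 ethanol and KMS11 fluvastatin. No alternative called a change of mean transcript length with fluvastatin for a member, and the 2 called in ethanol were 0 to 2 without single libraries. The cause of these changes was not tested.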

Other observations

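Several members share exon bases with other annotated genes. GATC lies on the opposite strand over 43.6% of the exon bases of SRSF9, and MFSD11 over 27.7% of those of SRSF2. On the same strand, ENSG00000266086 covers 32.7% of the exon bases of SRSF1 and ENSG00000288000 covers 13.4% of those of SRSF6. Processed copies of the members took at most 0.4% as many counts as their parent gene in any library, the highest being for SRSF6.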
